A study of Homo sapiens with 15 samples.

Results

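Collagen chains are the products of a large family of genes whose names take the form COL, a type number, A and a chain number. The 44 rows of the deposited gene table whose name has exactly that form were taken as members, out of 55773 rows. Their ribosome footprints, the stretches of mRNA that translating ribosomes protect from nuclease, were followed in HEK293, a human cell line derived from embryonic kidney. Of the 44 chains, 38 reached a mean of 20 normalized counts in at least 1 of the 5 groups of libraries. A normalized count is a footprint count divided by a factor for the size of its library.

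The 15 libraries formed 5 groups of 3. Flag/HA-ZC3H7A and Flag/HA-ZC3H7B cells overexpressed a tagged RNA-binding protein with CCCH zinc fingers, ZC3H7A or its relative ZC3H7B, and Flag/HA-control cells were labelled as overexpressing Flag/HA alone. These lines were treated with doxycycline at 1 µg/mL, which induced the tagged proteins over 24 h, lysed in hypotonic buffer and digested with RNase I, and their 3 replicates per line were called independent. The ZC3H7A/B-DD label stands for a ZC3H7A knockout that also carries a hairpin against ZC3H7B, and the Parental label for wild type cells with a control hairpin. Both were kept under puromycin at 5 µg/mL, released from it before collection, frozen, lysed with cycloheximide at 100 µg/mL and sequenced by another laboratory with its own protocol. For these 6 libraries nothing says that replicates were separate cultures, so p-values may measure technical spread. Because the protocols differ, each line was compared only within its own set. The growth notes also name Flp-In T-REx 293 cells. Whether a line is 1 clone is not stated in the sources used here. Footprints alone do not separate mRNA amount from ribosome load, and in bulk libraries fewer cells making a chain and less RNA per cell cannot be told apart.

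The targeted genes were read first. ZC3H7A had 38044 ± 562 normalized counts in Flag/HA-ZC3H7A cells and 6547 ± 52.6 in Flag/HA-control cells (SD, n = 3), and ZC3H7B had 27885 ± 927 in Flag/HA-ZC3H7B cells and 2152 ± 71.8 in Flag/HA-control cells. Under the ZC3H7A/B-DD label, ZC3H7A had 7116, 1890.3 and 5066 normalized counts, against 1885, 1819.9 and 2311 in Parental libraries. ZC3H7B had 3948, 2399 and 2969 in the libraries labelled ZC3H7A/B-DD, against 2479, 2321 and 2609 in Parental libraries. Neither was lower under that label (log2 change 1.03 and 0.30, limma adjusted p = 0.085 and 0.198), so the direction of each difference below is that of the label. Depth ranged from 20777204 to 42680589 reads per library, and 3 reads correspond to 2.33 to 4.73 normalized counts. Counts of Parental replicate 3 stood furthest from their group, with chi-square per degree of freedom of 64.6 and 87.9 against the other Parental libraries and 8.72 between those. The 7 markers listed for HEK293 reached a mean of 20 in each group. Of 10 fibroblast and mesenchymal markers, 4, 5, 4, 3 and 4 did so in Flag/HA-ZC3H7A, Flag/HA-ZC3H7B, Flag/HA-control, ZC3H7A/B-DD and Parental libraries. Among them, DCN did not exceed 5.24 and THY1 7.34 in any library, while FBLN1 made up most of the list's sum. LUM averaged 23.8 in Flag/HA-control and 14.1 in Parental libraries. It averaged 2.72, 1.38 and 3.41 in Flag/HA-ZC3H7A, Flag/HA-ZC3H7B and ZC3H7A/B-DD libraries. PDGFRA averaged from 31.0 in ZC3H7A/B-DD to 136 in Flag/HA-ZC3H7A libraries.

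Collagens are secreted as triple helices of 3 chains, in which glycine recurs at regular steps along each chain and many prolines and lysines are hydroxylated in the endoplasmic reticulum. Fibrillar chains build the cables of bone, skin and cartilage, type IV chains build the sheet of basement membranes, and FACIT chains, the fibril-associated collagens with interrupted helices, sit on the surface of fibrils. The remaining chains form beaded microfibrils, anchoring fibrils and short-chain networks, span the plasma membrane, or release fragments such as endostatin. HEK293 cells come from embryonic kidney, an organ whose filter depends on type IV collagen.

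Each of the 6 type IV chains was called lower in both overexpressing lines, as was COL18A1, the only tested chain of its own class in the Flag/HA set. The 6 type IV genes lie as 3 head-to-head pairs. COL4A1 and COL4A2, the chains of most basement membranes, start 127 bases apart on chromosome 13. COL4A4 and COL4A3 start 419 bases apart on chromosome 2 and, with COL4A5, encode the network of the mature glomerular filter. COL4A6 and COL4A5, which also meet in a network of Bowman's capsule and smooth muscle, start 380 bases apart on chromosome X at their nearest annotated starts. A further COL4A6 start has a window that is not shown, with 0 CCAAT and 1 GGGCGG. For the 3 pairs, the shared starting regions can be read beside the values of the genes they belong to. To that end 5 windows of 300 bases, from 250 before to 50 after an annotated start, are shown from RefSeq on GRCh38.p14. They are written 5′ to 3′ on the strand of the named gene, with its start at base 251, and capitals mark CCAAT and GGGCGG on either strand (ATTGG and CCGCCC on the other).
COL4A1, chr13:110307108-110307407, minus strand: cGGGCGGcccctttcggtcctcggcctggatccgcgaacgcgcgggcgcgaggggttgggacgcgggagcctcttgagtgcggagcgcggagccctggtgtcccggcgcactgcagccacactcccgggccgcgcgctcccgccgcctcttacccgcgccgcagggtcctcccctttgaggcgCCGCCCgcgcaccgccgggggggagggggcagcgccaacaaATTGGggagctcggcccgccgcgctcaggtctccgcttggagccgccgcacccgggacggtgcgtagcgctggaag
COL4A4, chr2:227164156-227164455, minus strand: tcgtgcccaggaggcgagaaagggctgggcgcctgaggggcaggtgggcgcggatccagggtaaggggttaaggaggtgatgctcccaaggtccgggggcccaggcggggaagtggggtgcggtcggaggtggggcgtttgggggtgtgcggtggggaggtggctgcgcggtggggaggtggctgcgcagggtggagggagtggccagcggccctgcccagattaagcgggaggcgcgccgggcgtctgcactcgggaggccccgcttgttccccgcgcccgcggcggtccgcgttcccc
COL4A3, chr2:227164374-227164673, plus strand: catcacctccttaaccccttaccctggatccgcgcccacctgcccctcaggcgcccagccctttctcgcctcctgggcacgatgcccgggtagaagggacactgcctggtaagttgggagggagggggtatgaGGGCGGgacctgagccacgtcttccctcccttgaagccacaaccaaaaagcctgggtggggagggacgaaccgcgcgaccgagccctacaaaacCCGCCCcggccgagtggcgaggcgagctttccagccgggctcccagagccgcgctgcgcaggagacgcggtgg
COL4A6, chrX:108439409-108439708, minus strand: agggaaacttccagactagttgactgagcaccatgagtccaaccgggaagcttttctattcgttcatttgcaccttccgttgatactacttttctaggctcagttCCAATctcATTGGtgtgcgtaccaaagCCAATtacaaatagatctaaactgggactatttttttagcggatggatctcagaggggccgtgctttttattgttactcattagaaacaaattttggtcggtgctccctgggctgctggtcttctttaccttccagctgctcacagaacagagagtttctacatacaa
COL4A5, chrX:108439588-108439887, plus strand: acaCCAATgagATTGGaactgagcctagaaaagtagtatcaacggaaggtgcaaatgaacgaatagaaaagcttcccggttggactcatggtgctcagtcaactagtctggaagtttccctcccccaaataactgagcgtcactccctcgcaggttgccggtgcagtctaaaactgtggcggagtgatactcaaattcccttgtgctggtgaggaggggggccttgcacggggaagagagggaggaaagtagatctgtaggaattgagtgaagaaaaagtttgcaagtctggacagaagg
The COL4A1 window also holds the start of COL4A2, at base 124. The COL4A4 and COL4A3 windows share 82 bases and the COL4A6 and COL4A5 windows 121 bases, and the pair of CCAAT boxes that face each other across 3 bases in the COL4A6 line is the one at the left end of the COL4A5 line, read there from the other strand. No capital stretch overlaps another, and TATAAA was searched too and is in none of the 5 windows. Of 35116 RefSeq windows of this length, 34.6% hold CCAAT, 45.0% hold GGGCGG and 11.5% hold TATAAA on either strand, so a match is a description of the letters and no more.

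HEK293 cells translated a narrow set of collagens in quantity. The summed chains took 0.0718 to 0.0782% of reads in Flag/HA-ZC3H7A libraries, 0.0809 to 0.0814% in Flag/HA-ZC3H7B libraries and 0.1066 to 0.1073% in Flag/HA-control libraries. The share was 0.2276 to 0.2808% in the libraries labelled ZC3H7A/B-DD and 0.2355 to 0.2667% in Parental libraries, where the ranges overlapped. COL4A1, COL4A2, COL2A1, COL14A1 and COL6A1 held 73.5 to 77.4% of the collagen counts of each library.

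Levels can be compared between genes only per length, here as normalized counts per kilobase of coding sequence. In Flag/HA-control cells the order was led by COL2A1, the chain of cartilage type II collagen, at 2428 ± 91.7, followed by COL4A1 at 1231 ± 15.3, COL4A2 at 929.0 ± 13.4 and COL14A1, a fibril-surface chain, at 899 ± 11.4 (SD, n = 3). COL4A2 and COL14A1 were neighbours whose library ranges, 914 to 941 and 888 to 911, did not overlap. COL6A1, a chain of beaded microfibrils, had 717 ± 7.97 and COL25A1, a transmembrane collagen, 647 ± 18.5. In Parental cells COL2A1 again led, at 3723 ± 101, ahead of COL4A1 at 2918 ± 122, COL4A2 at 2788 ± 109 and COL6A1 at 2114 ± 218. The library ranges of COL4A1 and COL4A2 overlapped there. In Flag/HA-ZC3H7A cells the first place went to COL4A1 at 1061 ± 57.3, with COL2A1 at 956 ± 63.3, although their ranges of 995 to 1094 and 885 to 1006 overlapped. In the libraries labelled ZC3H7A/B-DD COL2A1 stood at rank 4, at 2819 ± 311, and its range of 2483 to 3095 overlapped those of COL6A1, COL4A2 and, barely, COL4A1. In Flag/HA-ZC3H7B cells COL2A1 came first, at 1414 ± 76.0, above COL4A1 at 1004 ± 33.9 with no overlap.

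**Figure D1:**
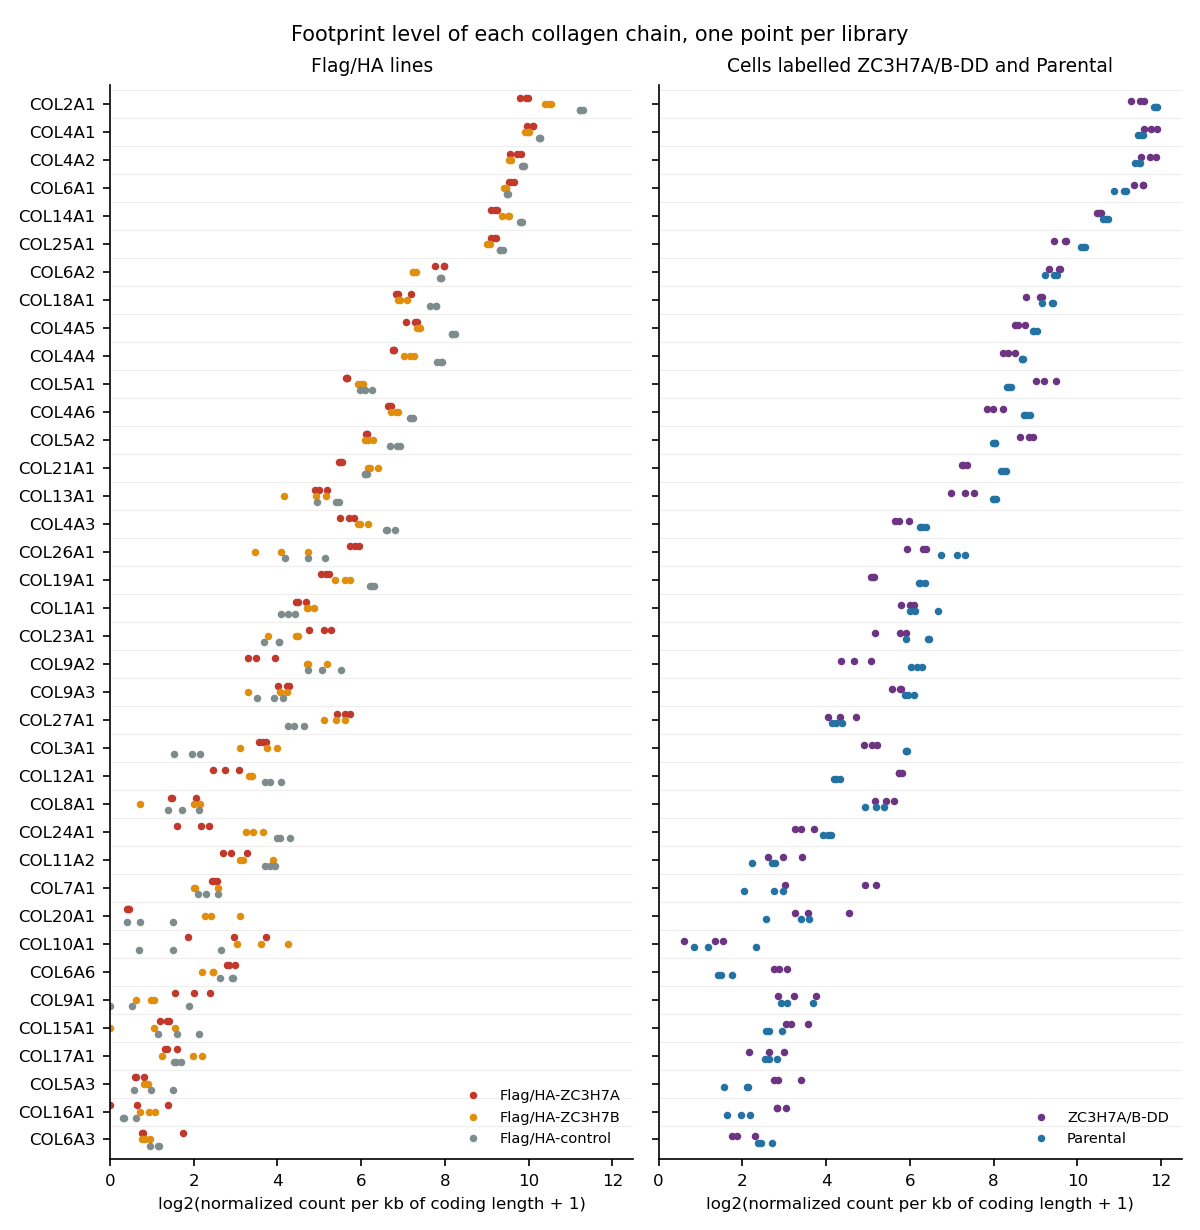
Footprint level of the 38 chains that reached a mean of 20 in some group, as log2 of normalized counts per kilobase of coding sequence plus 1, with 1 point per library. Chains are ordered by their mean over the 15 libraries, and the 6 chains at the top, COL2A1 to COL25A1, stand above the rest in the Flag/HA and Parental libraries, while COL25A1 overlaps the next chains in the ZC3H7A/B-DD libraries.

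Of the 38 chains, 26 reached a mean of 20 in each of the 5 groups. By group, 28 chains did so in Flag/HA-ZC3H7A, 31 in Flag/HA-ZC3H7B and 28 in Flag/HA-control cells, 37 in the libraries labelled ZC3H7A/B-DD and 34 in Parental libraries. A mean of 20 was reached in 1 group only by 3 chains: COL5A3, with a mean of 37.7, and COL16A1, with 31.2, in the libraries labelled ZC3H7A/B-DD, and COL10A1, the network chain of hypertrophic cartilage, with 24.7 in Flag/HA-ZC3H7B cells. COL8A1, COL9A1, COL15A1, COL17A1 and COL6A3 did so only in the ZC3H7A/B-DD and Parental groups. The members just inside the limit were COL17A1, a hemidesmosome chain, at a highest group mean of 24.2, COL10A1 at 24.7 and COL9A1 at 25.1. The other 6 chains stayed under 20 in each group. Their highest group means were 19.1 for COL1A2, 19.0 for COL6A5, 13.8 for COL8A2, 9.19 for COL11A1, 6.62 for COL28A1 and 6.11 for COL22A1. COL1A2 is the usual partner of COL1A1 in type I collagen. It had 2, 3 and 1 reads summed over Flag/HA-ZC3H7A, Flag/HA-ZC3H7B and Flag/HA-control libraries, while COL1A1 averaged 98.4, 115 and 80.0 normalized counts in these groups. A chain was tested where at least 3 libraries of its set had 10 or more normalized counts. That kept 33 chains in the Flag/HA set and 41 in the other set, 32 of them in both, and neither COL22A1 nor COL28A1. COL20A1 passed in the Flag/HA set only through the Flag/HA-ZC3H7B libraries, where it was high.

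In Flag/HA-ZC3H7A cells most tested collagens had fewer footprints than in Flag/HA-control cells. Of 33 chains, 18 were lower and 5 higher at a limma adjusted p of at most 0.05, against 28.2% of all 15599 genes lower and 29.2% higher. The lower share, 54.5%, was above the background and the higher share, 15.2%, below it. The median log2 change of the chains was −0.25 and that of all tested genes 0.02. In Flag/HA-ZC3H7B cells 15 of the 33 were lower (45.5%, against 25.4% of all genes) and 5 higher (15.2%, against 28.9%), or 4 of 32 higher without COL20A1. The median was −0.34 for the chains and 0.04 for all genes. Both comparisons use the same 3 control libraries, so they are not independent of each other. Changes are on the scale of log2 of the normalized count plus 1, which understates the change of low chains. How often the libraries of groups fail to overlap over all genes is not given here. Statements below that groups did not overlap therefore describe single chains and carry no weight of their own.

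**Figure D2:**
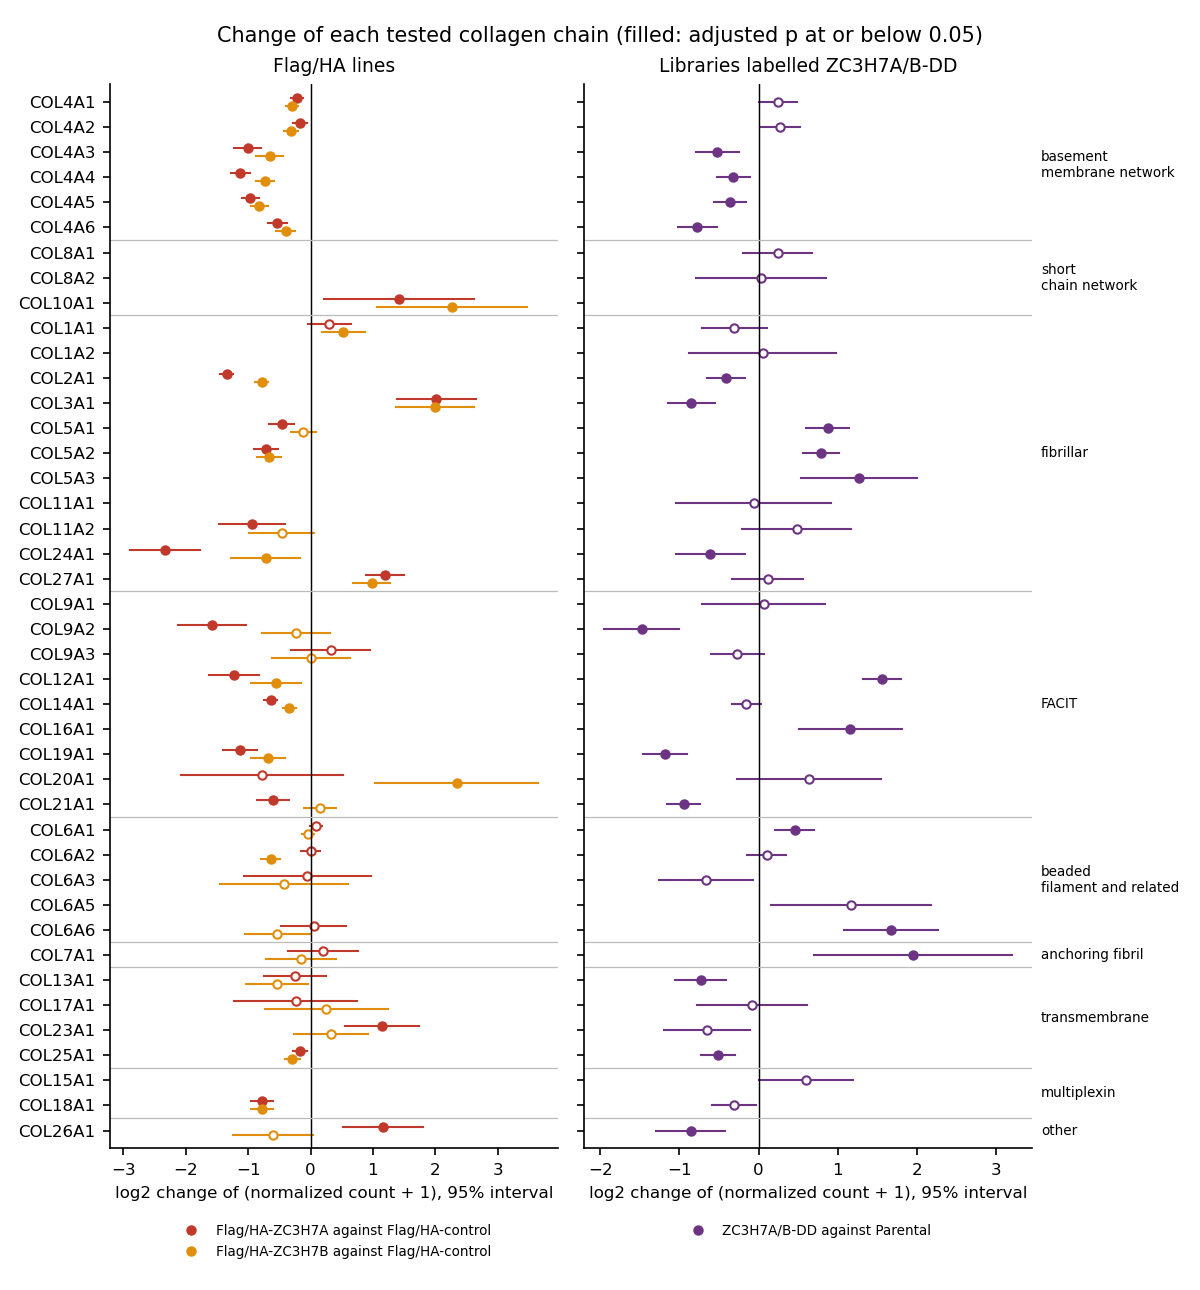
log2 change of each tested chain with its 95% interval, by structural class, for Flag/HA-ZC3H7A (red) and Flag/HA-ZC3H7B (orange) against Flag/HA-control on the left and the libraries labelled ZC3H7A/B-DD against Parental on the right. Filled points have a limma adjusted p of at most 0.05, and the 6 basement membrane chains at the top lie left of 0 in both overexpressing lines.

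Type IV collagen was lower as a whole class in both overexpressing lines: 6 of 6 chains in each. Of all genes, 28.2% were lower in Flag/HA-ZC3H7A and 25.4% in Flag/HA-ZC3H7B cells. The pair COL4A4 and COL4A3 was lower in both lines. COL4A4 had 541, 552 and 543 normalized counts in Flag/HA-ZC3H7A libraries and 658, 720.3 and 776 in Flag/HA-ZC3H7B libraries, against 1124, 1237 and 1208 in Flag/HA-control libraries. COL4A3, its partner, had 220, 279 and 257 in Flag/HA-ZC3H7A libraries and 301, 309.9 and 352 in Flag/HA-ZC3H7B libraries, against 476, 485 and 556 in Flag/HA-control libraries. For both genes the 3 groups did not overlap, with Flag/HA-ZC3H7A lowest. The log2 change of COL4A4 was −1.12 ± 0.07 in Flag/HA-ZC3H7A cells (SE, limma adjusted p = 4.46e-12), or 0.459-fold, and −0.73 ± 0.07 in Flag/HA-ZC3H7B cells (limma adjusted p = 6.34e-09). COL4A3 changed by −1.005 and −0.65.

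On the X chromosome, COL4A5, the chain mutated in X-linked Alport syndrome, had 782, 817 and 681 normalized counts in Flag/HA-ZC3H7A libraries and 817, 846 and 857 in Flag/HA-ZC3H7B libraries, against 1527, 1464 and 1457 in Flag/HA-control libraries. Its level in either overexpressing line was thus well below each control library, at log2 changes of −0.97 ± 0.07 and −0.82 ± 0.07 (limma adjusted p = 2.44e-11 and 3.94e-10). COL4A6 had 509, 511 and 528 in Flag/HA-ZC3H7A libraries and 532, 593 and 575 in Flag/HA-ZC3H7B libraries, against 762, 745 and 730.4 in Flag/HA-control libraries, with log2 changes of −0.53 and −0.40. The abundant pair moved least. COL4A1 had 5483, 5480 and 4985 in Flag/HA-ZC3H7A libraries and 5174, 5076 and 4843 in Flag/HA-ZC3H7B libraries, against 6196, 6083 and 6229 in Flag/HA-control libraries, at −0.22 and −0.29. COL4A2 had 4656, 4333 and 3834 in Flag/HA-ZC3H7A libraries and 3909, 3842 and 3800.3 in Flag/HA-ZC3H7B libraries, against 4834, 4699 and 4790 in Flag/HA-control libraries. Its log2 change of −0.16 in Flag/HA-ZC3H7A cells (limma adjusted p = 0.0121) became −0.09 without Flag/HA-ZC3H7A replicate 3 (adjusted p = 0.121) and −0.07 under quantile scaling (adjusted p = 0.25), so that call rests on 1 library and on the scaling. In Flag/HA-ZC3H7B cells it was −0.31 (limma adjusted p = 3.41e-05).

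**Figure D3:**
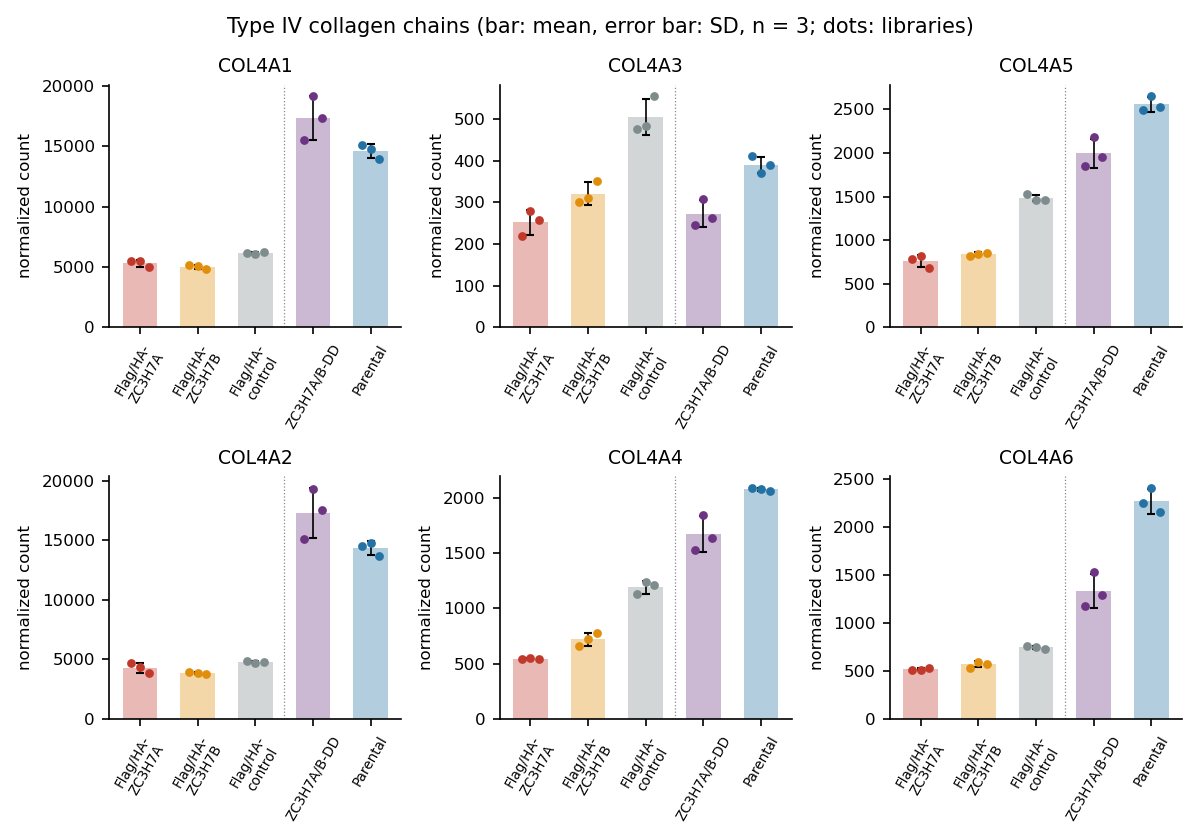
Normalized counts of the 6 type IV chains in each library (dots), with the mean (bar) and SD (error bar, n = 3), for Flag/HA-ZC3H7A, Flag/HA-ZC3H7B, Flag/HA-control, ZC3H7A/B-DD and Parental; the dotted line separates the sets made with different protocols. COL4A3 to COL4A6 are lower in Flag/HA-ZC3H7A, Flag/HA-ZC3H7B and ZC3H7A/B-DD libraries than in their controls, while COL4A1 and COL4A2 are higher in the ZC3H7A/B-DD libraries than in the Parental ones, a difference that did not pass the test.

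Within each pair the balance of footprints per coding length moved in some cases and not in others. COL4A5 over COL4A6 was 1.49 ± 0.165 in Flag/HA-ZC3H7A and 1.50 ± 0.0541 in Flag/HA-ZC3H7B libraries, against 2.01 ± 0.0205 in Flag/HA-control libraries. No library of either overexpressing line reached the lowest control value of 1.98. COL4A1 over COL4A2 was 1.28 ± 0.0646 and 1.34 ± 0.0285 in the same lines and 1.33 ± 0.00984 in Flag/HA-control libraries, and these ranges overlapped. COL4A3 over COL4A4 was 0.468 ± 0.0518 and 0.452 ± 0.0149, against 0.430 ± 0.0346, also with overlap. In the other set COL4A5 over COL4A6 was 1.52 ± 0.0765 in the libraries labelled ZC3H7A/B-DD and 1.14 ± 0.0391 in Parental libraries, without overlap. These ratios are given as values, with no test (SD, n = 3).

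Fibrillar chains moved in both directions. Of 8 tested in the Flag/HA set, 5 were lower and 2 higher in Flag/HA-ZC3H7A cells and 3 lower and 3 higher in Flag/HA-ZC3H7B cells. The shares of all genes were 28.2% lower and 29.2% higher in Flag/HA-ZC3H7A cells, and 25.4% and 28.9% in Flag/HA-ZC3H7B cells. COL2A1 had 4492, 4356 and 3949 normalized counts in Flag/HA-ZC3H7A libraries and 6617, 6369 and 5946 in Flag/HA-ZC3H7B libraries, against 11309, 10603 and 10598 in Flag/HA-control libraries. The 3 groups did not overlap. The change was −1.35 ± 0.05 in Flag/HA-ZC3H7A cells (SE, limma adjusted p = 1.12e-15), or 0.393-fold, and −0.78 ± 0.05 in Flag/HA-ZC3H7B cells (limma adjusted p = 1.08e-11), or 0.582-fold. COL2A1 thereby held 16.3 to 16.9% of collagen counts in Flag/HA-ZC3H7A libraries and 22.0 to 23.4% in Flag/HA-ZC3H7B libraries, against 27.8 to 29.2% in Flag/HA-control libraries.

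COL24A1, a fibrillar chain with an interrupted helix, had 21.4, 18.2 and 10.4 normalized counts in Flag/HA-ZC3H7A libraries and 44.1, 49.6 and 60.1 in Flag/HA-ZC3H7B libraries, against 81.0, 96.9 and 76.7 in Flag/HA-control libraries. It again formed 3 separate groups. Its log2 change of −2.33 ± 0.27 in Flag/HA-ZC3H7A cells (SE, limma adjusted p = 9.61e-08) was the lowest of the 33 chains in that line. The change of −0.72 in Flag/HA-ZC3H7B cells (limma adjusted p = 0.0271) lost its call without control replicate 1 or 2 or without Flag/HA-ZC3H7B replicate 1 or 2, at −0.75 to −0.62 and an adjusted p of at most 0.111, and without the filter on low values (adjusted p = 0.0548). COL5A2, a chain that starts and limits fibril growth, had 312, 310.2 and 306 in Flag/HA-ZC3H7A libraries and 347, 315 and 301 in Flag/HA-ZC3H7B libraries, against 518, 461 and 544 in Flag/HA-control libraries (log2 change −0.71 and −0.66). Its partner COL5A1 was lower in Flag/HA-ZC3H7A cells, at −0.46 (limma adjusted p = 0.000257), and had −0.12 in Flag/HA-ZC3H7B cells (adjusted p = 0.328). COL11A2, a chain of cartilage fibrils, fell by 0.94 in Flag/HA-ZC3H7A cells. It had −0.46 in Flag/HA-ZC3H7B cells and was not called, but was by limma without Flag/HA-ZC3H7B replicate 3 (−0.73, adjusted p = 0.0218), under quantile scaling (0.0444) and with array weights (0.027).

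The fibrillar chains that went the other way, in 1 or both lines, were COL3A1, COL27A1 and COL1A1. COL3A1, the chain of type III collagen in vessel walls and skin, had 50.9, 47.5 and 53.5 normalized counts in Flag/HA-ZC3H7A libraries and 54.7, 65.7 and 33.7 in Flag/HA-ZC3H7B libraries, against 15.2, 8.37 and 12.6 in Flag/HA-control libraries. Each library of the overexpressing lines was above each control library, and the log2 change was 2.02 ± 0.30 and 1.99 ± 0.30 (SE, limma adjusted p = 4.39e-06 and 5.99e-06), from 29 reads summed over the control libraries. COL27A1, a fibrillar chain of growth-plate cartilage, had 269, 232 and 293 in Flag/HA-ZC3H7A libraries and 189, 231 and 268 in Flag/HA-ZC3H7B libraries, against 100.0, 112 and 133 in Flag/HA-control libraries, with log2 changes of 1.20 and 0.98. COL1A1 had 109, 123 and 113 in Flag/HA-ZC3H7B libraries, against 79.7, 89.7 and 70.4 in Flag/HA-control libraries. This change of 0.53 (limma adjusted p = 0.00953) was 0.44 without control replicate 3 (adjusted p = 0.0531) and 0.38 under quantile scaling (adjusted p = 0.0516). In Flag/HA-ZC3H7A cells COL1A1 had 0.30 and was not called.

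FACIT chains were lower or not called in Flag/HA-ZC3H7A cells, with 5 of 7 lower and 0 higher by limma. In Flag/HA-ZC3H7B cells 3 of 7 were lower and 1, COL20A1, higher. The lower shares of all genes were 28.2% and 25.4% in these lines, and the higher shares 29.2% and 28.9%. COL12A1, which coats type I fibrils in tendon and ligament, had 52.2, 68.5 and 41.7 normalized counts in Flag/HA-ZC3H7A libraries and 86.7, 85.8 and 82.1 in Flag/HA-ZC3H7B libraries, against 111, 147 and 121 in Flag/HA-control libraries. Its change was −1.23 ± 0.19 in Flag/HA-ZC3H7A cells (SE, limma adjusted p = 9.11e-06) and −0.56 ± 0.19 in Flag/HA-ZC3H7B cells, where the call was lost without control replicate 2 (−0.45, adjusted p = 0.104). COL14A1, its close relative and the most abundant FACIT here, had 3132, 3274 and 2938 in Flag/HA-ZC3H7A libraries and 4009.6, 3937 and 3547 in Flag/HA-ZC3H7B libraries, against 4910.3, 4789 and 4836 in Flag/HA-control libraries (log2 change −0.64 and −0.34). COL19A1, a FACIT of basement membrane zones, had 108, 124 and 120.0 in Flag/HA-ZC3H7A libraries and 140, 180 and 164 in Flag/HA-ZC3H7B libraries, against 258, 267 and 250.2 in Flag/HA-control libraries (log2 change −1.13 and −0.68). These 3 chains were separate in each group. COL19A1 shares 70 exonic bases with LMBRD1 on the other strand, which had up to 7107 normalized counts and itself fell by 0.63 in Flag/HA-ZC3H7A cells and 0.64 in Flag/HA-ZC3H7B cells. Whether counting used strand is not stated in the sources used here, and the part of LMBRD1 reads in the COL19A1 counts was not tested.

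The other tested FACIT chains were COL9A2, COL9A3, COL20A1 and COL21A1. COL9A2, 1 of 3 chains of the cartilage type IX collagen, had 29.5, 21.0 and 18.3 normalized counts in Flag/HA-ZC3H7A libraries and 73.0, 52.3 and 52.8 in Flag/HA-ZC3H7B libraries, against 92.4, 67.0 and 52.8 in Flag/HA-control libraries. The 3 Flag/HA-ZC3H7A libraries lay well below the control range, at −1.58 ± 0.26 (SE, limma adjusted p = 1.79e-05). The Flag/HA-ZC3H7B libraries overlapped it, with 1 library just under its lower end, and were not called (−0.23, limma adjusted p = 0.483). Its partner COL9A3 had 0.32 in Flag/HA-ZC3H7A cells and 0.01 in Flag/HA-ZC3H7B cells, neither called, and shares 45 exonic bases with TCFL5, which was itself higher in both (0.87 and 0.99). COL21A1, a FACIT of vessel walls, had 127, 130 and 125 in Flag/HA-ZC3H7A libraries and 208, 201 and 239 in Flag/HA-ZC3H7B libraries, against 192, 191 and 199 in Flag/HA-control libraries (log2 change −0.60, limma adjusted p = 0.000194, and 0.15, adjusted p = 0.315). COL20A1 had 1.34, 1.40 and 1.304 in Flag/HA-ZC3H7A libraries and 16.7, 14.8 and 29.3 in Flag/HA-ZC3H7B libraries, against 1.27, 7.18 and 2.51 in Flag/HA-control libraries, from 3, 42 and 9 reads summed over the groups. Because it was tested only through the libraries where it was high, its calls follow in part from the filter and are given no weight here.

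Of the beaded-filament class, which includes the type VI chains that link cells to the surrounding matrix, 1 of 4 was lower in Flag/HA-ZC3H7B cells and 0 of 4 were called in Flag/HA-ZC3H7A cells by limma. The count of 1 of 4 is near the 25.4% of all genes lower in Flag/HA-ZC3H7B cells. In Flag/HA-ZC3H7A cells 28.2% of all genes were lower and 29.2% higher. COL6A1 had 2342, 2469 and 2272 normalized counts in Flag/HA-ZC3H7A libraries and 2180.4, 2165 and 2106 in Flag/HA-ZC3H7B libraries, against 2187, 2236 and 2219 in Flag/HA-control libraries. Its log2 change of 0.09 (95% interval −0.01 to 0.19) and −0.04 (−0.14 to 0.06) was not called in either line, while quantile scaling gave 0.12 in Flag/HA-ZC3H7A cells (limma adjusted p = 0.0279). COL6A2 had 763, 766 and 664 in Flag/HA-ZC3H7A libraries and 461, 459 and 485 in Flag/HA-ZC3H7B libraries, against 734, 713 and 737 in Flag/HA-control libraries. It was lower in Flag/HA-ZC3H7B cells, by −0.64 ± 0.07 (SE, limma adjusted p = 1.22e-07), and had 0.00 in Flag/HA-ZC3H7A cells. COL6A1 over COL6A2 per coding length was therefore 3.21 ± 0.176 in Flag/HA-ZC3H7A and 4.56 ± 0.222 in Flag/HA-ZC3H7B libraries, against 3.02 ± 0.0819 in Flag/HA-control libraries. COL6A3, the third chain of the usual type VI trimer, averaged 12.0 in Flag/HA-ZC3H7A, 7.70 in Flag/HA-ZC3H7B and 10.7 in Flag/HA-control libraries, and COL6A6 43.0, 28.5 and 41.6. Neither was called in the Flag/HA set, but COL6A6 was lower in Flag/HA-ZC3H7B cells with array weights (−0.61, limma adjusted p = 0.0313) or quantile scaling (−0.70, adjusted p = 0.0179).

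Among the remaining classes, COL18A1, the basement membrane chain that releases endostatin, had 758, 615 and 593 normalized counts in Flag/HA-ZC3H7A libraries and 613, 711 and 632 in Flag/HA-ZC3H7B libraries, against 1156, 1038 and 1149 in Flag/HA-control libraries. Both lines lay below the controls, at −0.77 ± 0.08 each (SE, limma adjusted p = 4.14e-08 and 4.48e-08). COL18A1 shares 1401 exonic bases with SLC19A1 on the other strand, which had up to 5805 normalized counts and changes of −0.15 (called lower) and 0.04 (not called) in these lines, and its part in the COL18A1 counts was not tested. COL25A1 had 1229, 1137 and 1248 in Flag/HA-ZC3H7A libraries and 1119, 1113 and 1078 in Flag/HA-ZC3H7B libraries, against 1332, 1330.3 and 1398 in Flag/HA-control libraries. Its change of −0.17 in Flag/HA-ZC3H7A cells (limma adjusted p = 0.0148) was −0.13 to −0.14 and not called without control replicate 3 or Flag/HA-ZC3H7A replicate 2 (adjusted p = 0.0772 and 0.0807), and was −0.29 in Flag/HA-ZC3H7B cells. COL23A1, another transmembrane chain, had 54.9, 41.9 and 61.3 in Flag/HA-ZC3H7A libraries and 34.97, 33.5 and 20.5 in Flag/HA-ZC3H7B libraries, against 19.0, 25.1 and 25.1 in Flag/HA-control libraries (log2 change 1.15, limma adjusted p = 0.00146, and 0.32, adjusted p = 0.357).

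COL26A1, a short secreted protein with collagen-like stretches, had 75.0, 81.0 and 69.1 normalized counts in Flag/HA-ZC3H7A libraries and 21.3, 13.4 and 33.7 in Flag/HA-ZC3H7B libraries, against 45.6, 22.7 and 33.9 in Flag/HA-control libraries. It was higher in Flag/HA-ZC3H7A cells, at 1.17 ± 0.31 (SE, limma adjusted p = 0.00246). The value in Flag/HA-ZC3H7B cells was −0.60 (limma adjusted p = 0.108), called lower only without control replicate 2 or Flag/HA-ZC3H7B replicate 3 (−0.92 to −0.85, adjusted p = 0.0341 at the highest), with array weights or under quantile scaling. COL10A1 had 5.36, 14.0 and 24.8 in Flag/HA-ZC3H7A libraries and 22.8, 14.8 and 36.7 in Flag/HA-ZC3H7B libraries, against 3.80, 10.8 and 1.26 in Flag/HA-control libraries. Its change of 2.26 in Flag/HA-ZC3H7B cells was called (limma adjusted p = 0.00206). That of 1.42 in Flag/HA-ZC3H7A cells, where the groups overlapped, was called at 0.0405 by limma but not without control replicate 1 or 3 or Flag/HA-ZC3H7A replicate 2 or 3 (0.84 to 1.39, adjusted p = 0.23 at the highest), nor with pseudocount 5, no filter, quantile scaling or array weights (limma adjusted p = 0.0532, 0.0948, 0.101 and 0.052), nor in edgeR (0.0544) or DESeq2 (0.0611). COL13A1, a transmembrane chain of the nerve and muscle junction, was not called in either line (−0.25 and −0.54). Flag/HA-ZC3H7B cells showed a limma call without control replicate 2 or Flag/HA-ZC3H7B replicate 2 (−0.75 to −0.71, adjusted p = 0.028 at the highest) and under quantile scaling. COL7A1, the anchoring fibril chain of skin, averaged 40.9 in Flag/HA-ZC3H7A, 32.7 in Flag/HA-ZC3H7B and 35.9 in Flag/HA-control libraries, and COL17A1 7.60, 11.8 and 9.10, and neither was called.

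The difference between the overexpressing lines was tested directly. Of 33 chains, 11 were lower and 5 higher in Flag/HA-ZC3H7A than in Flag/HA-ZC3H7B cells (33.3% and 15.2%, against 18.2% and 18.4% of all genes), or 10 of 32 lower without COL20A1. Besides COL20A1, the lower FACIT chains were COL9A2 at −1.35, COL21A1 at −0.75, COL12A1 at −0.67, COL19A1 at −0.45 and COL14A1 at −0.30. The other lower chains were COL24A1 at −1.61, COL2A1 at −0.57 (limma adjusted p = 4.47e-09), COL4A4 at −0.39, COL4A3 at −0.35 and COL5A1 at −0.35. The 5 higher were COL26A1 at 1.76 (limma adjusted p = 6.67e-05), COL23A1 at 0.83, COL6A2 at 0.64, COL4A2 at 0.15 and COL6A1 at 0.13. Of the 16 calls, 10 held in each left-out fit that still tested the chain. They include COL20A1, tested in only 6 of the 9 fits because it failed the filter without any Flag/HA-ZC3H7B library, and given no weight here. Those of COL4A2 (lost without any of 6 libraries: control replicate 3, Flag/HA-ZC3H7A replicate 1 or 2, or any Flag/HA-ZC3H7B replicate; 0.08 to 0.16), COL6A1 (without Flag/HA-ZC3H7A replicate 1 or 2 or Flag/HA-ZC3H7B replicate 2 or 3; 0.10 to 0.14) and COL23A1 (without Flag/HA-ZC3H7A replicate 1 or 3 or Flag/HA-ZC3H7B replicate 3; 0.59 to 0.79) did not. Nor did those of COL4A3 (without Flag/HA-ZC3H7A replicate 1 or Flag/HA-ZC3H7B replicate 3; −0.28 to −0.26), COL12A1 (without Flag/HA-ZC3H7A replicate 3; −0.50) and COL19A1 (without Flag/HA-ZC3H7B replicate 2; −0.37). COL4A1, COL4A5 and COL25A1 were not called but became so without a Flag/HA-ZC3H7A library, replicate 3 for COL4A1 (0.12) and replicate 2 for COL4A5 (−0.20) and COL25A1 (0.17), the last also under TMM scaling (limma adjusted p = 0.0458) and in edgeR (0.0469). The COL4A2 and COL6A1 calls were also lost without the low-value filter and under quantile scaling, and that of COL23A1 without the filter (limma adjusted p = 0.069) and with array weights (0.0718). For COL18A1 the difference was 0.00, with a 95% interval of −0.17 to 0.18.

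The summed level of the 10 fibroblast and mesenchymal markers was 1831 to 2118 normalized counts in Flag/HA-ZC3H7A libraries and 1351 to 1531 in Flag/HA-ZC3H7B libraries, against 3103 to 3251 in Flag/HA-control libraries, of which FBLN1, a matrix protein, averaged 1636 in Flag/HA-ZC3H7A, 1127 in Flag/HA-ZC3H7B and 2900 in Flag/HA-control libraries. The list did not move as 1: PDGFRA, a growth factor receptor, had 147, 138 and 121 in Flag/HA-ZC3H7A libraries and 77.5, 45.6 and 60.1 in Flag/HA-ZC3H7B libraries, against 84.8, 64.6 and 65.4 in Flag/HA-control libraries, so that it was above the controls in Flag/HA-ZC3H7A. LUM averaged 2.72 in Flag/HA-ZC3H7A and 1.38 in Flag/HA-ZC3H7B libraries, against 23.8 in Flag/HA-control libraries. DCN and THY1 were near 0 in each of these groups. The HEK293 markers summed to 2772 to 3002 in Flag/HA-ZC3H7A libraries and 3496 to 3758 in Flag/HA-ZC3H7B libraries, against 1793 to 1857 in Flag/HA-control libraries, without overlap. They were led by INA, a neuronal filament protein, which averaged 1901, 2490 and 844 in that order of groups. This list did not move as 1 either: in the same order NEFL averaged 44.0, 49.5 and 31.0, PAX2 118, 137 and 132, and LHX1 44.4, 66.9 and 76.7. Smooth muscle markers, 5 genes led by ACTA2, summed to 325 to 400 normalized counts in Flag/HA-ZC3H7A libraries and 593 to 622 in Flag/HA-ZC3H7B libraries, against 1591 to 1763 in Flag/HA-control libraries. The 7 blood markers, mostly HBB, summed to 256 to 327 and 336 to 449 in these lines, against 610 to 803 in Flag/HA-control libraries, and the 5 endothelial markers found in the table stayed under 44.8 in each library. The part of any of these lists in the collagen result was not tested.

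In the libraries labelled ZC3H7A/B-DD the collagens moved in both directions. Of 41 tested chains, 8 were higher and 13 lower than in Parental libraries at a limma adjusted p of at most 0.05, against 11% of all 17092 genes higher and 13.5% lower. Both shares, 19.5% and 31.7%, were above the background, and the median change was −0.06 for the chains and 0.02 for all genes. Without Parental replicate 3, the library furthest from its group, 7 chains were higher and 15 lower. Without Parental replicate 2 the counts were 4 higher and 8 lower, without the ZC3H7A/B-DD replicate 2 they were 4 and 12, and without its replicate 3 they were 5 and 9. Type V collagen, COL12A1 and COL6A1 stood on the higher side and 4 of 6 type IV chains on the lower side.

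COL12A1 had 483, 482 and 506 normalized counts in the libraries labelled ZC3H7A/B-DD, against 164, 175 and 158 in Parental libraries. The groups were far apart, at a log2 change of 1.56 ± 0.11 (SE, limma adjusted p = 3.26e-05), or 2.95-fold. COL5A1 had 2834, 3954 and 3253 in the libraries labelled ZC3H7A/B-DD, against 1807, 1869 and 1764 in Parental libraries. COL5A2 had 1766, 2202 and 2075 in the libraries labelled ZC3H7A/B-DD, against 1178, 1165 and 1139.9 in Parental libraries. Both type V chains were above each Parental library, at 0.87 ± 0.12 and 0.79 ± 0.10 (SE, limma adjusted p = 0.00125 and 0.000776). The rarer type V chain COL5A3 had 30.3, 50.4 and 32.5 in the libraries labelled ZC3H7A/B-DD, against 17.8, 17.4 and 10.2 in Parental libraries. Its change of 1.27 (limma adjusted p = 0.0215) was lost without Parental replicate 2 or ZC3H7A/B-DD replicate 2 (1.05 to 1.38, adjusted p = 0.0697 at the highest).

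COL6A1 had 8027, 9362 and 9431 normalized counts in the libraries labelled ZC3H7A/B-DD, against 7027, 6786 and 5760.3 in Parental libraries. The change of 0.46 (limma adjusted p = 0.0166) was lost without Parental replicate 2 or ZC3H7A/B-DD replicate 2 or 3 (0.42 to 0.49, adjusted p = 0.0683 at the highest). COL6A2 had 1956, 2298 and 2345 in the libraries labelled ZC3H7A/B-DD, against 2112, 2219 and 1820 in Parental libraries, which overlapped, and was not called (0.10). COL6A1 over COL6A2 per coding length was 4.03 ± 0.0404 in the libraries labelled ZC3H7A/B-DD and 3.16 ± 0.134 in Parental libraries. COL6A6 had 42.8, 39.4 and 50.3 in the libraries labelled ZC3H7A/B-DD, against 16.2, 11.3 and 12.2 in Parental libraries, at 1.67 ± 0.26 (SE, limma adjusted p = 0.00253). COL6A3 averaged 28.5 in the libraries labelled ZC3H7A/B-DD and 45.0 in Parental libraries and was not called (−0.67, limma adjusted p = 0.0963).

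COL7A1 was the least even of the higher chains. It had 62.2, 260 and 314 normalized counts in the libraries labelled ZC3H7A/B-DD, against 59.9, 51.3 and 27.4 in Parental libraries, so that replicate 1 was close to the Parental range and replicates 2 and 3 far above it. The change of 1.95 (limma adjusted p = 0.0321) was lost without Parental replicate 2 or 3 or ZC3H7A/B-DD replicate 2 or 3 (1.52 to 2.06, adjusted p = 0.109 at the highest). COL16A1, a FACIT of skin and cartilage, had 29.6, 34.7 and 29.3 in the libraries labelled ZC3H7A/B-DD, against 17.0, 13.9 and 10.2 in Parental libraries. That change of 1.16 was lost without Parental replicate 2 or ZC3H7A/B-DD replicate 2 or 3 (1.08 to 1.20, limma adjusted p = 0.0625 at the highest).

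Among the type IV chains, COL4A6 had 1175, 1526 and 1288 normalized counts in the libraries labelled ZC3H7A/B-DD, against 2243, 2407 and 2151 in Parental libraries (log2 change −0.78, limma adjusted p = 0.00142). COL4A3 had 247, 309 and 263 in the libraries labelled ZC3H7A/B-DD, against 411, 372 and 389 in Parental libraries (−0.52). COL4A5 had 1854, 2180.2 and 1957 in the libraries labelled ZC3H7A/B-DD, against 2495, 2653 and 2525 in Parental libraries (−0.36). COL4A4 was lower by −0.32. Each of the 4 was below the Parental range. Only the COL4A6 call held whichever library was left out: that of COL4A3 was lost without Parental replicate 1 or ZC3H7A/B-DD replicate 3 (−0.50 to −0.48), that of COL4A4 without Parental replicate 1 or 2 or ZC3H7A/B-DD replicate 1 or 3 (−0.32 to −0.26) or without the low-value filter (adjusted p = 0.0643), and that of COL4A5 without Parental replicate 2 or ZC3H7A/B-DD replicate 1 or 3 (−0.35 to −0.31). COL4A1 had 15504, 19171 and 17345 in the libraries labelled ZC3H7A/B-DD, against 15114, 14810 and 13937 in Parental libraries, above each of them but not called (0.24, limma adjusted p = 0.13), except with array weights (0.22, adjusted p = 0.0153). COL4A2 likewise had 15090.4, 19300.0 and 17508 in the libraries labelled ZC3H7A/B-DD, against 14541, 14748 and 13691 in Parental libraries (0.27, limma adjusted p = 0.115), a change called only with array weights (0.24, adjusted p = 0.0135).

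The lower FACIT chains were COL9A2, COL19A1 and COL21A1, 3 of 9 tested, while 2 of 9 were higher. Of all genes, 13.5% were lower and 11% higher. COL9A2 had 40.4, 67.7 and 50.3 normalized counts in the libraries labelled ZC3H7A/B-DD, against 147, 159 and 133 in Parental libraries, at −1.48 ± 0.21 (SE, limma adjusted p = 0.00152). COL19A1 had 112, 115 and 118 in the libraries labelled ZC3H7A/B-DD, against 279, 253 and 255 in Parental libraries (−1.18 ± 0.12, limma adjusted p = 0.000315), while LMBRD1, which shares bases with it, had 0.08 and was not called. COL21A1 had 431, 439 and 474 in the libraries labelled ZC3H7A/B-DD, against 895, 877 and 823 in Parental libraries (−0.95 ± 0.09, limma adjusted p = 0.000213). None of these 3 overlapped between the groups. COL3A1 had 128, 145 and 160.4 in the libraries labelled ZC3H7A/B-DD, against 258, 258 and 265 in Parental libraries (−0.85). COL13A1 had 274, 405 and 349 in the libraries labelled ZC3H7A/B-DD, against 549, 579 and 559 in Parental libraries (−0.73). COL25A1 had 1457, 1772 and 1732 in the libraries labelled ZC3H7A/B-DD, against 2275, 2365 and 2417 in Parental libraries (−0.51). The 3 calls held without any 1 library.

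The remaining lower calls were less firm. COL2A1 had 11084, 13818 and 12854 normalized counts in the libraries labelled ZC3H7A/B-DD, against 16694, 17028 and 16135 in Parental libraries, without overlap, and held 14.7 to 15.0% of collagen counts under the ZC3H7A/B-DD label, against 19.8 to 20.5% in Parental libraries. Its change of −0.41 (limma adjusted p = 0.0234) was lost without Parental replicate 1 or 2 or ZC3H7A/B-DD replicate 1 or 3 (−0.42 to −0.32, adjusted p = 0.105 at the highest). COL24A1, at −0.61 (limma adjusted p = 0.0478), was lost without Parental replicate 1 or 2 or ZC3H7A/B-DD replicate 1 or 2 (−0.60 to −0.51), without the low-value filter (adjusted p = 0.0691) and in DESeq2 (adjusted p = 0.0769). COL26A1, at −0.86 (limma adjusted p = 0.0128), was lost without Parental replicate 2 (−0.74, adjusted p = 0.0668). COL18A1 (−0.31) and COL23A1 (−0.65) were not called but became so without Parental replicate 3 (−0.40 and −0.84) and with array weights (limma adjusted p = 0.00216 and 0.00445), and COL23A1 also under quantile scaling (0.0435) and in DESeq2 (0.0432). SLC19A1, which shares exonic bases with COL18A1, was lower by −0.33. COL1A1, COL8A1, COL9A1, COL11A2, COL14A1, COL15A1, COL17A1, COL20A1 and COL27A1 were not called, except COL14A1 (−0.19, adjusted p = 0.0154) and COL15A1 (0.55, adjusted p = 0.0447) by limma with array weights. COL27A1, higher in both overexpressing lines, had 86.3, 142 and 107 in the libraries labelled ZC3H7A/B-DD, against 100.4, 110.3 and 93.5 in Parental libraries (0.11, 95% interval −0.34 to 0.56).

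**Figure D4:**
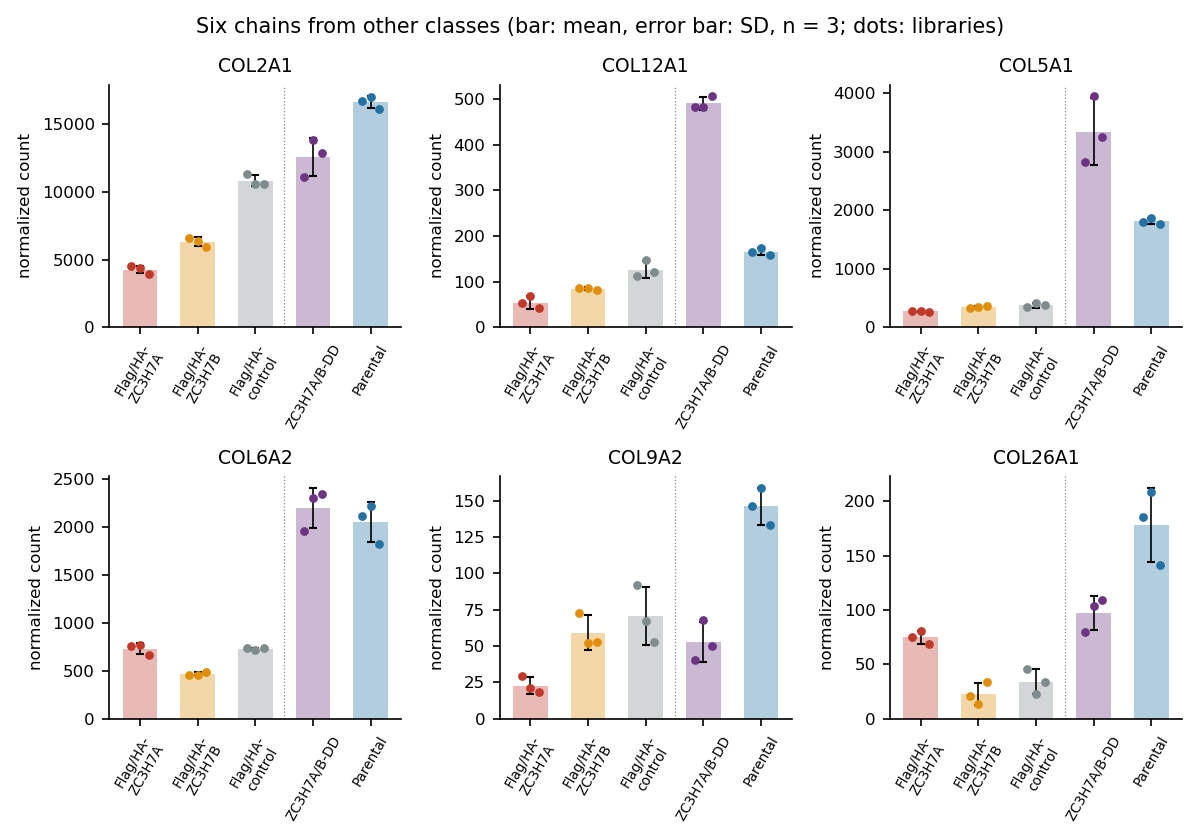
Normalized counts of COL2A1, COL12A1, COL5A1, COL6A2, COL9A2 and COL26A1 in each library (dots), with the mean (bar) and SD (error bar, n = 3), in the same order of groups as for type IV collagen. COL2A1 is lower than its control in both sets, COL12A1 is lower in both overexpressing lines and higher in the libraries labelled ZC3H7A/B-DD, and COL6A2 is low in Flag/HA-ZC3H7B alone.

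The mesenchymal marker sum was 2981 to 3199 normalized counts in the libraries labelled ZC3H7A/B-DD and 2619 to 3392 in Parental libraries. The ranges overlapped, and FBLN1 had 0.13 and was not called (limma adjusted p = 0.414). LUM averaged 3.41 under the ZC3H7A/B-DD label and 14.1 in Parental libraries, PDGFRA 31.0 and 65.6, and PDGFRB 11.2 and 8.59. The HEK293 marker sum was 5975 to 6436 in the libraries labelled ZC3H7A/B-DD and 4890 to 5167 in Parental libraries, without overlap. Within that list INA averaged 3041 under the label and 1758 in Parental libraries, LHX1 70.0 and 71.5, and PAX2 141 and 223. The smooth muscle sum was 837 to 1046 in the libraries labelled ZC3H7A/B-DD and 460.2 to 540 in Parental libraries, without overlap. The blood sum was 309 to 372 under the ZC3H7A/B-DD label and 170.0 to 219 in Parental libraries, also without overlap. The endothelial sum was 59.9 to 145 under the ZC3H7A/B-DD label and 48.8 to 69.6 in Parental libraries, with overlap. Their part in the collagen result was not tested.

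The study's title names codon-dependent regulation, so the codons of the chains were described. Codons ending in A or T made up a median of 51.7% of the coding sequence of the 44 chains, from 19.2% in COL6A2 to 73.0% in COL3A1, and 39.4% over 18285 genes with a coding sequence in GENCODE release 29. Glycine codons made up a median of 24.4% in the chains and 6.41% over all genes, and proline codons 16.6% and 5.58%. Across the 33 tested chains, the log2 change in Flag/HA-ZC3H7A cells and the share of codons ending in A or T had a Pearson r of −0.24 and a Spearman rho of −0.35 (all 12855 tested genes with a coding sequence: −0.19 and −0.26). In Flag/HA-ZC3H7B cells they had −0.07 and −0.25 (all genes −0.23 and −0.29). For the difference between the overexpressing lines they had −0.19 and −0.46, against 0.02 and 0.01 over all genes. In the libraries labelled ZC3H7A/B-DD the 41 chains had −0.17 and −0.21, against 0.06 and 0.10 over all genes. COL3A1 and COL10A1, at 73.0% and 65.2%, lay on the higher side in the overexpressing lines, opposite to COL24A1 at 72.3%. In the libraries labelled ZC3H7A/B-DD the change of the chains also ran with coding length, at r 0.54 and rho 0.46 (all genes 0.10 and 0.19). The points of each correlation share libraries, and genes are not independent replicates.

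**Figure D5:**
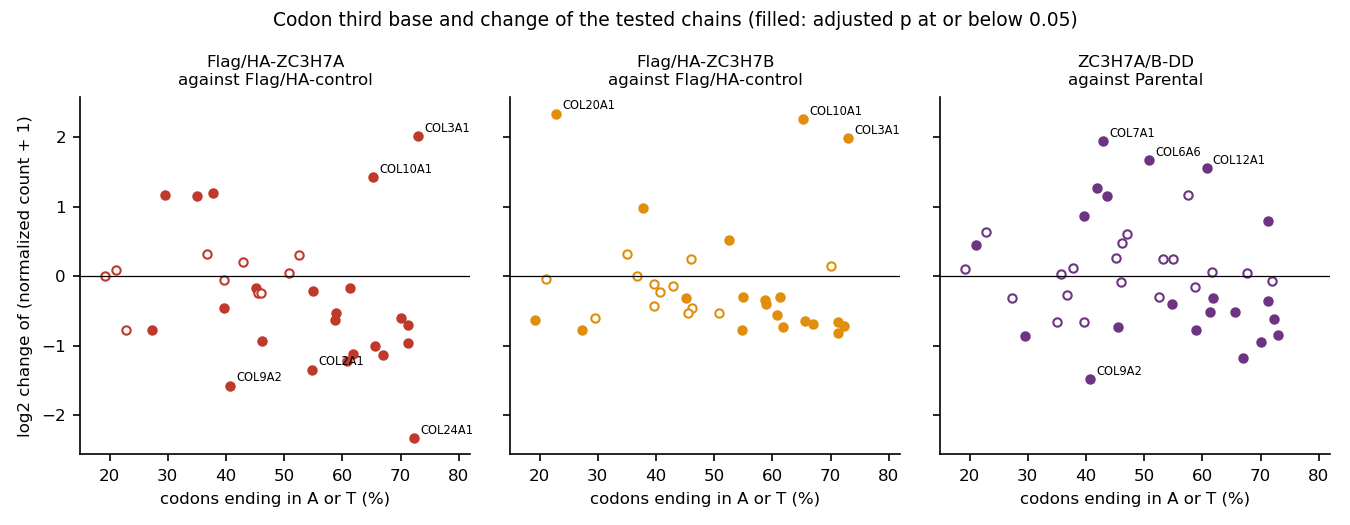
log2 change of each tested chain against the share of its codons that end in A or T, for Flag/HA-ZC3H7A and Flag/HA-ZC3H7B against Flag/HA-control and ZC3H7A/B-DD against Parental; filled points have a limma adjusted p of at most 0.05, and called chains with a change of at least 1.3 in size are named. In the left panel the chains had a Pearson r of −0.24 and a Spearman rho of −0.35, near the −0.19 and −0.26 of all tested genes. COL3A1 and COL10A1 lie high at the right.

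Proteins that build, export and read collagens were called lower more often than higher in the overexpressing lines. Their counts stand against 28.2% of all genes lower and 29.2% higher in Flag/HA-ZC3H7A cells, and 25.4% lower and 28.9% higher in Flag/HA-ZC3H7B cells. Of 14 proteins of a modifying list, drawn up for hydroxylation and glycosylation of the chains, 9 were lower and 1 higher in each line. PLOD2, a lysyl hydroxylase, averaged 5675 ± 74.3 normalized counts in Flag/HA-ZC3H7A and 4861 ± 142 in Flag/HA-ZC3H7B libraries, against 10093 ± 221 in Flag/HA-control libraries (SD, n = 3; log2 change −0.83 and −1.05). LEPRE1, a prolyl 3-hydroxylase, was also lower (−0.60 and −0.65). COLGALT1, which adds galactose to hydroxylysine, was the higher enzyme in both, at 0.51 and 0.51. In ER folding and export, 9 of 14 were lower and 1 higher in Flag/HA-ZC3H7A cells and 10 of 14 lower and 1 higher in Flag/HA-ZC3H7B cells. Lower were PPIB, the prolyl isomerase cyclophilin B (−0.61), and FKBP7 (−0.97) in Flag/HA-ZC3H7A cells, and TMEM38B, an ER ion channel (−1.30), and SEC23A, a coat protein of ER vesicles (−0.71), in Flag/HA-ZC3H7B cells. Higher were CTAGE5, a collagen export factor, in Flag/HA-ZC3H7A cells (0.77) and TRAPPC2, a tethering factor, in Flag/HA-ZC3H7B cells (0.49). Naming went by the smallest p within each line, so a gene named for 1 line may have moved in the other too. In Flag/HA-ZC3H7A libraries TMEM38B averaged 2873 ± 82.2, SEC23A 5934 ± 198 and TRAPPC2 339 ± 55.9. The Flag/HA-control means were 3814 ± 77.3, 7074 ± 179 and 396 ± 27.0.

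Of 12 proteins that trim or crosslink collagens outside the cell, 8 were lower and 3 higher in Flag/HA-ZC3H7A cells and 10 lower and 0 higher by limma in Flag/HA-ZC3H7B cells. PXDN, the peroxidase that crosslinks type IV collagen, averaged 1703 ± 63.5 normalized counts in Flag/HA-ZC3H7A libraries, against 3521 ± 55.5 in Flag/HA-control libraries (log2 change −1.05, limma adjusted p = 1.57e-14). Its mean in Flag/HA-ZC3H7B libraries was 2445 ± 31.5. PCOLCE, an enhancer of propeptide cleavage, had −1.91 and −2.16, and ADAMTS3, a procollagen protease, −0.999 in Flag/HA-ZC3H7B cells. ADAMTS3 averaged 852 ± 14.8 in Flag/HA-ZC3H7A libraries, against 1188 ± 82.2 in Flag/HA-control libraries. LOX, the lysyl oxidase, and its relative LOXL3 were higher in Flag/HA-ZC3H7A cells (0.60 and 0.32). In Flag/HA-ZC3H7B libraries LOX averaged 381 ± 20.6, below the 571 ± 28.3 of Flag/HA-control libraries. Of 9 receptors, 7 were lower in each line. They included the integrin chain ITGB1 (−0.70 and −0.72), GPR126, an adhesion receptor for type IV collagen (−1.03 in Flag/HA-ZC3H7A cells), and the integrin chain ITGA1 (−1.32 in Flag/HA-ZC3H7B cells). DDR2, a receptor kinase for fibrillar collagen, was higher in Flag/HA-ZC3H7A cells (0.20). Of 6 proteases, 4 were lower in Flag/HA-ZC3H7A and 3 in Flag/HA-ZC3H7B cells, among them MMP2, which cleaves type IV collagen (−2.05 and −1.16), and CTSL, a lysosomal cathepsin (−0.35 and −0.59).

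Compared directly, the machinery was more often higher than lower in Flag/HA-ZC3H7A against Flag/HA-ZC3H7B cells: 6 and 2 of 14 proteins of the modifying list, 8 and 1 of 14 folding and export proteins, 4 and 1 of 12 trimming and crosslinking proteins, 3 and 1 of 9 receptors, and 3 and 1 of 6 proteases. Of all genes, 18.4% were higher and 18.2% lower, and with lists this short single genes move the share. Higher were CRTAP (0.24), PLOD2 (0.22), TMEM38B (0.89), SEC23A (0.46), LOX (1.18), ADAMTS3 (0.52), ITGA1 (1.01), ITGA2 (0.47), MMP16 (1.81) and CTSL (0.23). MMP16 was near the floor, at 9.76 ± 5.25 normalized counts in Flag/HA-ZC3H7A and 1.93 ± 0.87 in Flag/HA-ZC3H7B libraries (SD, n = 3). The second mean is under the 2.33 to 4.73 normalized counts that 3 reads correspond to. Lower were PLOD1 (−0.30), COLGALT2 (−0.26), TRAPPC2 (−0.72), PXDN (−0.52), GPR126 (−0.65) and MMP2 (−0.88). 

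For ZC3H7A/B-DD against Parental, the counts of these proteins stand against 11% of all genes higher and 13.5% lower. Of 14 proteins of the modifying list 3 were lower, with LEPREL4 at −0.65 and COLGALT2 at −0.82. Of 15 folding and export proteins 4 were lower and 1 higher. SEC23A averaged 1727 ± 86.9 normalized counts in the libraries labelled ZC3H7A/B-DD and 4842 ± 195 in Parental libraries (SD, n = 3; log2 change −1.49, limma adjusted p = 1.1e-05), FKBP9 had −0.76, and SERPINH1, the collagen chaperone HSP47, was higher at 0.42. Of 13 trimming and crosslinking proteins 4 were lower, among them ADAMTS2 at −0.70 and PCOLCE2 at −0.57. Of 9 receptors 3 were lower and 1 higher, including the uptake receptor MRC2 at −1.28, ITGA2 at −0.70 and DDR2 at 0.63. Of the 6 proteases, the membrane-type enzyme MMP15 was lower at −1.43 and MMP16 higher at 1.34.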

How the data were processed

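Ribosome footprints of 15 HEK293 libraries were deposited as a gene table of normalized counts, a signal that the authors made by dividing reads by DESeq2-type size factors. Per the submitters' processing notes, the tools were STAR, Bowtie, cutadapt, DESeq2 and HTSeq, with hg19 and hg38 as builds; which tool or build did what, and whether counting used strand, is not given in the sources used here. Whole reads were recovered for 100% of values within 0.001 reads.

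The Flag/HA set (9 libraries) and the other set (6) were fitted separately with limma 3.58.1 in R 4.3.3 on log2 of the value plus 1, keeping genes that reached 10 in 3 or more libraries of the set, with Benjamini-Hochberg adjustment over all of them and a threshold of 0.05. Alternatives were other pseudocounts, filters and scalings, array weights, edgeR 4.0.16 and DESeq2 1.42.0 on recovered reads, a replicate block, and each library left out. The fits were tested on simulated data. Coding lengths, codons and exon overlaps came from GENCODE release 29, which need not be the annotation the authors counted on. Every chain with a mean of 20 in some group was to be named, and of the machinery lists up to 2 called genes per direction, by p. Members and lists were chosen with earlier results of these data known. The floor of 3 reads covers counting error only.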

Additional observations from a re-analysis of the deposited data

How the results depend on the processing

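Counts of called chains stayed within 1.5 times the reported count in most settings. With genes at 50 or more in at least 3 libraries, 3 chains were higher in Flag/HA-ZC3H7A and 3 in Flag/HA-ZC3H7B cells than in Flag/HA-control cells, and 5 in the libraries labelled ZC3H7A/B-DD than in Parental ones, because fewer chains were tested. Between the overexpressing lines 2 were higher without the filter and 3 under quantile scaling, where 2936 of all genes were higher, against 2873 in the reported fit. The cause was not tested. Array weights called 4426 genes higher and 4577 lower for ZC3H7A/B-DD against Parental, where equal weights called 1873 and 2309; the cause was not tested. Leaving out each library gave 2 to 5 chains higher between the overexpressing lines and, for ZC3H7A/B-DD against Parental, 4 to 8 chains higher, 8 to 15 lower, 760 to 2636 genes higher and 1135 to 2924 lower. Every chain whose sign turned was uncalled in the reported fit, and the cause was not tested. In Flag/HA-ZC3H7A cells COL6A2 had −0.0436 under quantile scaling, −0.0116 in DESeq2 and −0.0322 to 0.0706 over left-out libraries, COL6A3 0.17 in edgeR, 0.15 in DESeq2 and −0.17 to 0.23, and COL6A6 −0.0929 under quantile scaling, −0.0037 with array weights and −0.0581 to 0.117. In Flag/HA-ZC3H7B cells COL6A1 had 0.0082 and COL17A1 −0.0341 under quantile scaling, COL7A1 −0.37 to 0.0039 over left-out libraries, and COL9A3 −0.0139 under TMM, −0.18 under quantile scaling, −0.0416 with array weights and −0.185 to 0.300 over left-out libraries. Between the overexpressing lines COL3A1 had −0.0047 in edgeR, −0.0128 in DESeq2, −0.13 with array weights and −0.24 to 0.23 over left-out libraries, where COL5A2 had −0.0946 to 0.0078, COL13A1 −0.0142 to 0.51 and COL18A1 −0.11 to 0.0691. For ZC3H7A/B-DD against Parental COL9A1 had −0.0674 under quantile scaling, −0.10 with array weights and −0.19 to 0.31 over left-out libraries, COL17A1 0.25 with array weights and −0.31 to 0.17, and COL27A1 −0.0064 with array weights and −0.0735 to 0.28. Replicate numbers gave no sign of pairing: same-numbered libraries of different groups correlated at −0.057 to 0.092 in the Flag/HA set and −0.133 to 0.033 in the other. Libraries of different groups and different numbers correlated at −0.101 to 0.081 and −0.034 to 0.166. These correlations use deviations from group means of 3 libraries and cannot exclude a batch shared by number. A replicate block left 10 of the 13 lower calls under the ZC3H7A/B-DD label, without COL2A1, COL4A4 and COL24A1, and gave 16 lower in Flag/HA-ZC3H7B cells, against 15, with COL13A1. The numbers of all genes called with the stricter filter, without the filter and with the replicate block are not given here.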

Other observations

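Other genes with collagen in their names or descent were outside the name rule. COLEC12, a scavenger receptor with a collagen-like stalk, had 3946 ± 162 normalized counts in Flag/HA-ZC3H7A and 3193 ± 251 in Flag/HA-ZC3H7B libraries, against 4560 ± 216 in Flag/HA-control libraries (SD, n = 3), and was lower in both lines at log2 changes of −0.21 and −0.52 by limma. It had 3768 ± 122 in the libraries labelled ZC3H7A/B-DD and 3793 ± 396 in Parental libraries. COLQ, the collagen-like tail of synaptic acetylcholinesterase, had 55.5 ± 16.2 in Flag/HA-ZC3H7A and 69.8 ± 13.9 in Flag/HA-ZC3H7B libraries, against 49.8 ± 12.54 in Flag/HA-control libraries, and was not called.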
